A study of Homo sapiens with 12 samples.

Results

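Cell cycle and proliferation genes are described here in CAOV3 and TOV21G ovarian cancer cells, with and without exposure to ovarian cancer ascites. The set is a fixed list of 41 genes of S phase and mitosis, chosen by symbol from the 19251 genes listed for each library, and all 41 passed the filter on low values that left 17616 genes for testing. The series asked which transcripts change when ovarian cancer cells meet ascites, the peritoneal fluid of this disease. RNA sequencing was performed on 12 libraries, 3 for each combination of line and treatment. CAOV3 is labelled epithelial high grade serous and TOV21G epithelial clear, and both carry the genotype label WT. All 12 cultures grew in DMEM with 10% fetal bovine serum and antibiotics. Ascites cultures received 150 µL of ascites in 1.5 mL of medium, a nominal 10%, for 16 h. Controls carry the treatment label none, and no vehicle addition is described for them. No label says whether the 3 libraries of a group came from separate cultures, so p-values measure the spread between these libraries, which may be technical.

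A dividing cell commits to a new cycle in G1, when D-type and E-type cyclins activate cyclin-dependent kinases (CDKs) that phosphorylate the RB1 protein and release E2F transcription factors. E2F proteins then drive genes for origin licensing, the replicative helicase and deoxynucleotide synthesis, while the DREAM and MYBL2-FOXM1 complexes time the later wave of mitotic genes. These transcripts are low in resting cells and abundant in growing tumour cells, so they are widely read as a measure of proliferation. In bulk RNA the share of cycling cells and the RNA made per cycling cell cannot be told apart.

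Many promoters of these genes carry sequence elements of that program, and 4 are shown because they hold its best known elements. RefSeq promoter windows on GRCh38.p14 run from 250 bases before to 50 bases after each annotated start, 300 bases in all, and 44 windows were matched to 33 of the 41 genes. Motifs were searched on both strands: the E2F site, read as TTTGGCG, as TTTCCCG, as TTTCGCG or as TTTGCCG, the CCAAT box, read as CCAAT, and the CHR element of late cell cycle genes, read as TTTGAA or as TTCGAA. None of these motifs lies inside another. In the sequences, printed in the direction of transcription, capitals mark every match. CDC45 (chr22:19479670-19479969, plus strand, the first of 3 windows) and MCM3 (chr6:52284693-52284992, minus strand) are replication genes, and CDC20 (chr1:43358731-43359030, plus strand) and PLK1 (chr16:23678639-23678938, plus strand) are mitotic genes.
CDC45: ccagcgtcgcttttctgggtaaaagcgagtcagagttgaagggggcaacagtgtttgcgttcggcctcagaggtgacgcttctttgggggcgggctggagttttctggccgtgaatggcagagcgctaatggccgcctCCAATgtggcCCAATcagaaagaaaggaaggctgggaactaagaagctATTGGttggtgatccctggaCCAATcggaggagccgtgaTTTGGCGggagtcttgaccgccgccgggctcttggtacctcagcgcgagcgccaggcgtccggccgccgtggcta
MCM3: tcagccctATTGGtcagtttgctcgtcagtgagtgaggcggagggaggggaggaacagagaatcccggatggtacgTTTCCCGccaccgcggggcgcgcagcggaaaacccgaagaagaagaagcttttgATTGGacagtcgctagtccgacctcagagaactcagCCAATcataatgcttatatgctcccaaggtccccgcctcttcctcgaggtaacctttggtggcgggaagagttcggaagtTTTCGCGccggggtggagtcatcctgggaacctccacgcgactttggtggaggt
CDC20: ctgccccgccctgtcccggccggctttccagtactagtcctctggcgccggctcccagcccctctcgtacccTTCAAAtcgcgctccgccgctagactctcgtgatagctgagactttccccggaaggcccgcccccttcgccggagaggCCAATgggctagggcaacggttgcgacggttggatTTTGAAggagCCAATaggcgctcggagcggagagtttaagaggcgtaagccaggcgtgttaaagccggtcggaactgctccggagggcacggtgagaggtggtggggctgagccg
PLK1: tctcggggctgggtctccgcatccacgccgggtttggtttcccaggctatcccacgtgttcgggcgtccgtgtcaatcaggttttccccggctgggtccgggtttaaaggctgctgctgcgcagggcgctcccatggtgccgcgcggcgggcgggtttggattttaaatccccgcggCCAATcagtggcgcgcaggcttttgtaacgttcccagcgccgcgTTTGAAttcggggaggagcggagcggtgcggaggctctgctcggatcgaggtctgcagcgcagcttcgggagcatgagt

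In the CDC45 window an E2F motif lies at -25 to -19 from the start, downstream of 4 CCAAT boxes. MCM3 holds E2F motifs at -174 to -168 and -4 to 3. In PLK1 a CHR element at -29 to -24 follows a CCAAT box at -73 to -69. CDC20 carries CHR elements at -178 to -173 and -65 to -60, each with a CCAAT box downstream of it. Across the list, E2F motifs were found in 14 of 26 windows of G1 and S phase genes (53.8%), 27.8% of windows of G2 and mitosis genes and 8.67% of all 35116 windows. CHR elements were found in 12 of 18 windows of G2 and mitosis genes (66.7%), against 7.69% for G1 and S phase genes and 16.4% of all windows. CCAAT boxes were present in 88.9% and 73.1% of the later and earlier genes' windows and in 34.6% of all windows. CHR and CCAAT motifs stood together in 61.1% of the G2 and mitosis windows and in 6.38% of all windows. The single CCNE1 window held none of these motifs. The first of 2 AURKB windows held only a CCAAT box on the opposite strand, with no CHR element. A match describes the letters of a window and does not show that a factor binds there.

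Expression is given as the normalised count, the reads of a gene over the library's size factor, as deposited. Differences are on the scale of log2(normalised count + 1) with the standard error (SE) or the 95% confidence interval of the limma fit. The threshold for a call was an adjusted p of 0.05, with Benjamini-Hochberg adjustment over all 17616 tested genes. Libraries held 26697609 to 34491304 reads. The epithelial marker list was expressed in both lines but summed to 135464 to 166859 normalised counts over the CAOV3 libraries and 10437 to 12457 over the TOV21G libraries, where CDH1, E-cadherin, was at most 17.3. Of 12 leukocyte markers, CD14 and LYZ were analysed here, and their sum was 117 to 134 in CAOV3 controls and 101 to 125 with ascites, against 8.39 to 13.0 and 11.6 to 20.4 in TOV21G. Haemoglobin genes were not analysed here.

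In the joint fit of all 12 libraries, no cell cycle gene passed the threshold after ascites in either line. With limma, 0 of 41 were called in CAOV3, where 1.73% of all tested genes were called, and 0 of 41 in TOV21G, where 0.409% were called. At an unadjusted p under 0.05 there was 1 gene in CAOV3, FOXM1, and there were 2 in TOV21G, MYBL2 and KIF20A. Of all 17616 tested genes, 2280 in CAOV3 and 1615 in TOV21G were at that level in limma. The edgeR and DESeq2 tests on the recovered reads also called 0 members in each line, where they called 2.9% and 2.88% of all genes in CAOV3 and 0.647% and 0.857% in TOV21G. At an unadjusted p under 0.05 they gave 6 and 1 members in CAOV3 and 2 and 3 in TOV21G. A limma fit of the CAOV3 libraries alone called 8.19% of the genes it tested and 2 of the 41, MYBL2 higher and MKI67 lower, with 13 members at an unadjusted p under 0.05. Estimates ran from -0.15 to 0.12 in CAOV3 and from -0.15 to 0.25 in TOV21G. Their medians were 0.03 and -0.03, beside -0.002 and -0.018 for all tested genes. Apart from MKI67 and CENPF, the 95% intervals of the other 39 genes lay within 12.6% lower to 21.4% higher in CAOV3 and within 20.5% lower to 19.5% higher in TOV21G. Larger changes than these lay outside every one of those intervals, taken gene by gene. The joint fit gives a gene the same SE in both lines. The median within-group SD of the members was 0.04 in CAOV3 and 0.08 in TOV21G. The intervals may therefore be too narrow for TOV21G and too wide for CAOV3.

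**Figure D1:**
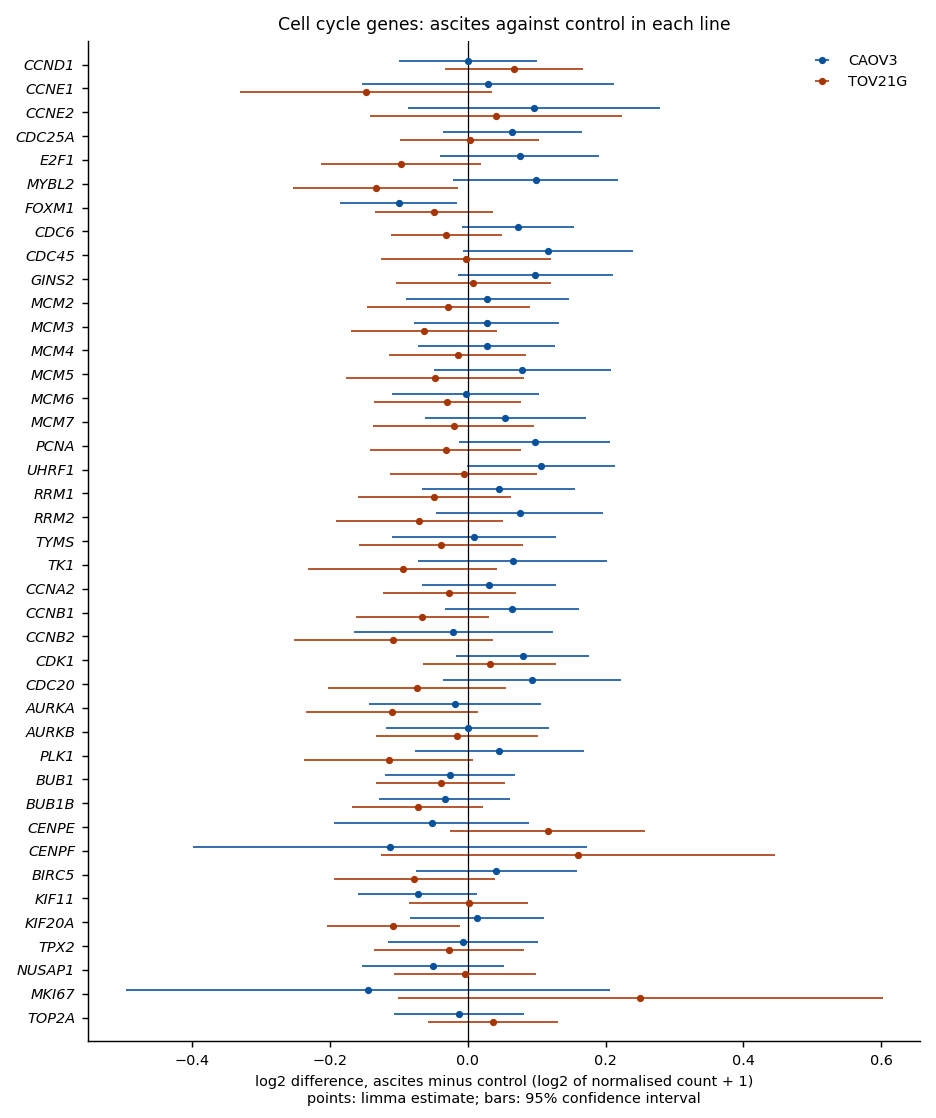
Estimated log2 difference, ascites minus control, for each of the 41 cell cycle genes in CAOV3 (blue) and TOV21G (brown), on the scale of log2(normalised count + 1). Points are limma estimates and bars 95% confidence intervals; most estimates lie within 0.15 of 0, and the widest bars belong to MKI67 and CENPF.

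Among the G1 regulators, CCND1 (chr11:69641087-69654474, on GRCh38 in GENCODE release 29, as for all gene positions here) encodes cyclin D1, which pairs with CDK4 and CDK6 to start the cycle. It had 24297, 24203 and 24787 normalised counts in the CAOV3 controls and 24657, 24075 and 24547 with ascites. TOV21G held 5580, 5200 and 5410 in controls and 5403, 6052 and 5519 with ascites. The treatment groups overlapped in both lines, and the log2 differences were -0.00 (95% interval -0.10 to 0.10) in CAOV3 and 0.07 (-0.03 to 0.17) in TOV21G. CCNE1 (chr19:29811898-29824308), cyclin E1, had 738, 674 and 674 normalised counts in CAOV3 controls and 692, 755 and 681 with ascites. In TOV21G it had 808, 640 and 720 in controls and 642, 707 and 602 with ascites. The groups overlapped here too, and the TOV21G estimate of -0.15 (-0.33 to 0.03) was the lowest of the list in that line (limma adjusted p = 0.616).

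FOXM1 (chr12:2857681-2877155), a transcription factor of G2 and mitosis genes, had 6854, 6743 and 6935 normalised counts in CAOV3 controls and 6345, 6296 and 6507 with ascites. All 3 ascites libraries lay below all 3 controls, but the log2 difference of -0.10 (SE 0.04) did not pass (limma adjusted p = 0.283). In TOV21G the groups overlapped, at 6787, 6404 and 6430 against 6444, 6492 and 6029. MYBL2 (chr20:43667019-43716496), the B-Myb subunit that joins FOXM1 on mitotic promoters, went the other way in CAOV3, with 11536, 11719 and 11434 in controls and 12388, 12280 and 12464 with ascites. It is named with its values known, being the only member with a higher call in any alternative fit of CAOV3. The groups did not overlap, and the log2 difference was 0.10 (SE 0.06, limma adjusted p = 0.501). Fitted on the CAOV3 libraries alone it reached an adjusted p of 0.0477. In TOV21G it had 6816, 5858 and 6321 in controls and 5808, 6112 and 5384 with ascites, a log2 difference of -0.13 (adjusted p = 0.495). The difference between the lines in this response was -0.23 and was not called (limma adjusted p = 0.295). CCNE2 and CDC25A, the second E-type cyclin and the phosphatase that activates CDK2, had estimates of 0.10 and 0.06 in CAOV3, and E2F1, the founding E2F factor, 0.07.

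**Figure D2:**
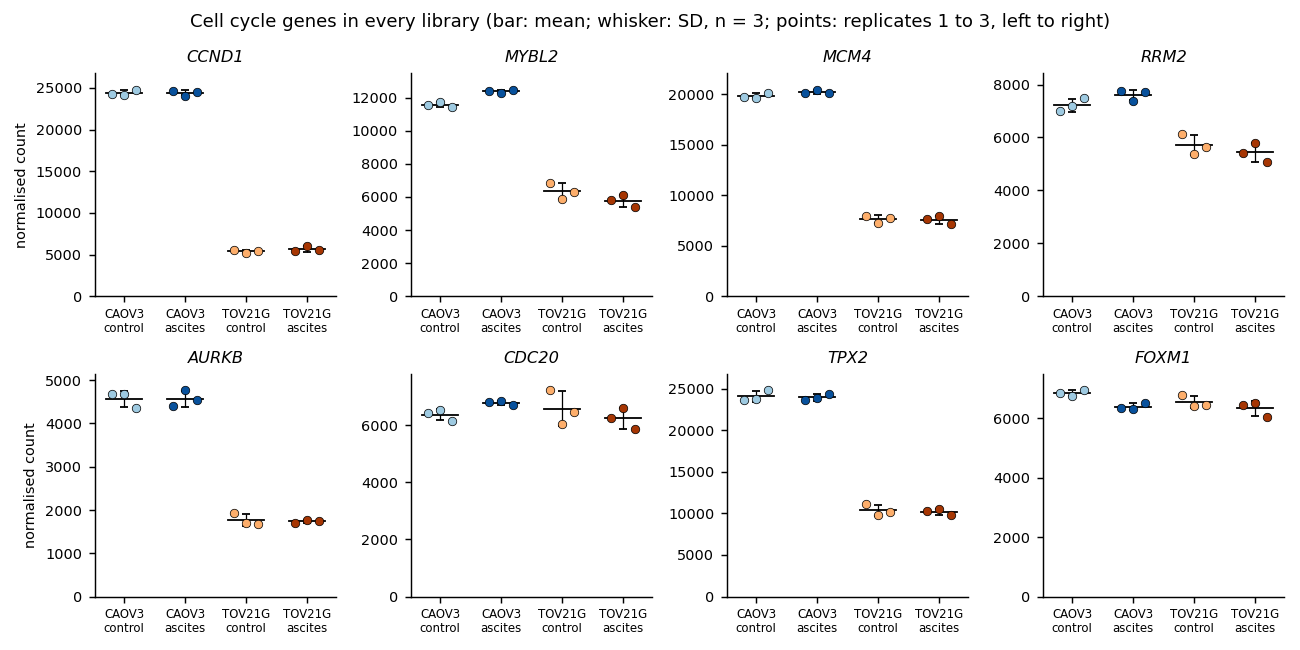
Normalised counts of 8 cell cycle genes in each library, by line and treatment (points, replicates 1 to 3; bar, mean; whisker, SD, n = 3). The lines stand apart for CCND1, MYBL2, MCM4, RRM2, AURKB and TPX2. The CAOV3 ascites libraries lie above the CAOV3 controls for MYBL2 and CDC20 and below them for FOXM1.

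The replication machinery showed small positive estimates in CAOV3 for 10 of its 11 genes. In TOV21G 10 of 11 were small and negative, and no gene was called. Of all 17616 tested genes, 8406 were above 0 in CAOV3 and 9881 below 0 in TOV21G. CDC45 (chr22:19479459-19520612), a helicase subunit that is loaded when origins fire, had 1486, 1467 and 1588 normalised counts in CAOV3 controls and 1627, 1721 and 1577 with ascites. Its highest control exceeded its lowest ascites library, and the log2 difference was 0.12 (SE 0.06, limma adjusted p = 0.421). TOV21G values were 1197, 1037 and 1081 in controls and 1094, 1140 and 1068 with ascites. MCM3 (chr6:52264009-52284881), a subunit of the hexameric MCM helicase, had 8273, 8179 and 8692 in CAOV3 controls and 8491, 8381 and 8744 with ascites. TOV21G held 7995, 7103 and 7616 in controls and 7200, 7569 and 6948 with ascites. MCM4 (chr8:47960185-47978160), another subunit of that ring, had 19747, 19691 and 20176 in CAOV3 controls and 20177, 20459 and 20108 with ascites, with a lower level in TOV21G of 7981, 7270 and 7732 in controls and 7617, 7940 and 7191 with ascites. Treatment groups of MCM3 and MCM4 overlapped in both lines. The other 4 helicase subunits had CAOV3 estimates from -0.00 for MCM6 to 0.08 for MCM5. PCNA, the sliding clamp of the replication fork, and UHRF1, which carries DNA methylation through replication, were at 0.10 and 0.11. CDC6, which loads the MCM ring onto origins, and GINS2, of the complex that activates it, were at 0.07 and 0.10. In TOV21G these 11 genes ran from -0.06 for MCM3 to 0.01 for GINS2.

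Of the deoxynucleotide supply genes, RRM2 (chr2:10120698-10131419) encodes the S-phase subunit of ribonucleotide reductase. It had 7007, 7170 and 7492 normalised counts in CAOV3 controls and 7739, 7385 and 7700 with ascites. TOV21G held 6118, 5362 and 5646 in controls and 5408, 5809 and 5087 with ascites. Both pairs of groups overlapped, and the log2 differences were 0.08 (-0.05 to 0.20) and -0.07 (-0.19 to 0.05). TK1 (chr17:78174075-78187233), thymidine kinase of the salvage pathway, had 3747, 3829 and 3365 in CAOV3 controls and 3772, 3870 and 3785 with ascites. TOV21G libraries held 4170, 3685 and 3759 in controls and 3548, 3931 and 3400 with ascites. TYMS, thymidylate synthase, and RRM1, the large reductase subunit, had estimates of 0.01 and 0.04 in CAOV3 and -0.04 and -0.05 in TOV21G.

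Mitotic regulators were divided in sign in CAOV3, and none was called in either line. CDC20 (chr1:43358955-43363203), which activates the anaphase-promoting complex, had 6414, 6536 and 6164 normalised counts in CAOV3 controls and 6829, 6835 and 6711 with ascites. The groups did not overlap, and the log2 difference was 0.09 (-0.04 to 0.22, limma adjusted p = 0.571). TOV21G had 7232, 6042 and 6471 in controls and 6242, 6602 and 5883 with ascites. PLK1 (chr16:23677656-23690367), polo-like kinase 1, had 5561, 5535 and 5267 in CAOV3 controls and 5567, 5600 and 5716 with ascites so its lowest ascites library was barely above its highest control. In TOV21G it had 6454, 5522 and 5758 in controls and 5429, 5778 and 5146 with ascites, with a log2 difference of -0.12 (-0.24 to 0.01). AURKB (chr17:8204733-8210600), the kinase of the chromosomal passenger complex, had 4680, 4686 and 4359 in CAOV3 controls and 4409, 4773 and 4536 with ascites, and 1927, 1692 and 1672 in TOV21G controls and 1708, 1776 and 1739 with ascites. Its groups overlapped in both lines. Cyclins CCNA2, CCNB1 and CCNB2, which carry CDK1 into mitosis, ranged from -0.02 to 0.06 in CAOV3 and from -0.11 to -0.03 in TOV21G. CDK1 itself was at 0.08 in CAOV3 and 0.03 in TOV21G, and AURKA, the spindle pole kinase, at -0.02 and -0.11. The checkpoint genes BUB1 and BUB1B were both at -0.03 in CAOV3, and BIRC5, the survivin subunit of the passenger complex, at 0.04. In TOV21G these genes were at -0.04, -0.07 and -0.08.

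Spindle genes were likewise below the threshold. KIF11 (chr10:92593286-92655395), the kinesin that pushes spindle poles apart, had 6394, 6396 and 6848 normalised counts in CAOV3 controls and 6322, 6225 and 6112 with ascites. These groups did not overlap, and the log2 difference was -0.07 (-0.16 to 0.01). It held 8818, 8551 and 8904 in TOV21G controls and 8686, 9083 and 8524 with ascites. KIF20A (chr5:138178719-138187715), a kinesin of cytokinesis, was the only member whose TOV21G groups did not overlap on the deposited scale, with 4209, 3917 and 4001 in controls and 3812, 3907 and 3537 with ascites. Its log2 difference there was -0.11 (SE 0.04, limma adjusted p = 0.495). In CAOV3 it had 5721, 5728 and 5920 in controls and 6046, 5827 and 5664 with ascites. TPX2 (chr20:31739271-31801805), which activates Aurora A on the spindle, had 23651, 23794 and 24837 in CAOV3 controls and 23603, 23907 and 24396 with ascites. TOV21G libraries held 11140, 9852 and 10135 without and 10234, 10516 and 9758 with ascites, and both pairs of groups overlapped. NUSAP1, a microtubule bundling protein, was at -0.05 and -0.00.

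Counted by group rather than by gene, the treatment groups did not overlap for 12 of 41 members in CAOV3, 9 with ascites above control and 3 below, where 24.2% of all tested genes were separated, 11.4% above and 12.8% below. Those above were E2F1, MYBL2, CDC6, MCM5, MCM7, PCNA, CCNB1, CDC20 and PLK1, and those below FOXM1, KIF11 and MKI67. In TOV21G 1 of 41 was separated, beside 11.1% of all genes, and 3 of 41 with TMM scaling or within-line size factors. Estimates in CAOV3 were above 0 for 19 of 22 G1 and S phase genes (median 0.06) and for 7 of 19 G2 and mitosis genes (median -0.01), beside 8406 of 17616 tested genes. For each library the median deviation of the G1 and S phase genes from the CAOV3 control mean was -0.012, -0.013 and 0.015 in controls and 0.055, 0.038 and 0.058 with ascites. These library medians did not overlap between the groups, and those of the G2 and mitosis genes did. No gene among them was called. Separated G1 and S phase genes numbered 7 of 22, and 7 with TMM scaling (24.3% of all genes), 12 with size factors computed within each line (25.0% of all genes) and 11 after removing trends with transcript length and GC content (25.6%). In TOV21G 4 of 22 G1 and S phase estimates were above 0 (median -0.03), beside 7343 of 17616 tested genes. With TMM scaling or within-line size factors the count was 8. The sign did not hold: over 24 alternatives the count ran from 1 to 19. The 19 came from a run chosen after the data were seen, without TOV21G control replicate 1 and ascites replicate 3. Without that control alone the count was 13. In CAOV3 it ran from 18 to 21, but many of these runs cannot move it, such as those that omit a TOV21G library.

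MKI67 and CENPF stood apart by their spread. MKI67 (chr10:128096659-128126385) encodes the Ki-67 antigen of dividing nuclei, the standard histological proliferation marker. It had 15464, 15029 and 15132 normalised counts in CAOV3 controls and 13694, 14194 and 13372 with ascites. In TOV21G it had 19873, 34729 and 29930 in controls and 36046, 26587 and 36284 with ascites. The CAOV3 groups did not overlap, ascites being lower in all 3 libraries, while the TOV21G groups overlapped. The joint fit gave -0.15 (-0.50 to 0.21, limma adjusted p = 0.781) in CAOV3 and 0.25 (-0.10 to 0.60, adjusted p = 0.650) in TOV21G. The difference of the responses, 0.40, was not called (adjusted p = 0.503). When the CAOV3 libraries were fitted alone, with the spread of that line only, MKI67 was called lower (log2 difference -0.15, SE 0.03, limma adjusted p = 0.00506). With 1 library left out the CAOV3 estimate ran from -0.17 to -0.13. Over all 24 alternatives it ran from -0.17 to -0.07, and MKI67 was not called in 23 of them. The within-group SD of its log2 values was 0.03 in CAOV3 and 0.35 in TOV21G.

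CENPF (chr1:214603195-214664588), a large kinetochore protein, had 7053, 6780 and 7237 normalised counts in CAOV3 controls and 6431, 6797 and 6263 with ascites. In TOV21G it had 11855, 18261 and 16680 in controls and 18474, 14457 and 18829 with ascites. The same libraries were low for both genes, control replicate 1 and ascites replicate 2 of TOV21G. CENPE, a kinetochore motor, was also lowest there, with 2164, 2526 and 2440 in TOV21G controls and 2669, 2411 and 2635 with ascites. TOP2A, the mitotic topoisomerase, was lowest there too, with 12314, 13192 and 13544 in controls and 13622, 13046 and 13348 with ascites. Most other members ran the opposite way. Control replicate 1 was the highest TOV21G control for 34 of 41 members and the lowest for exactly these 4, and ascites replicate 2 was the highest ascites library for 37 and the lowest for the same 4. Over all tested genes, these libraries were the highest of their groups for 49.0% and 48.5%. MKI67, CENPF, CENPE and TOP2A have the longest annotated transcripts of the 41, at 12678, 10307, 8612 and 5758 bases.

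A long nuclear RNA that is no member was lowest in the same libraries. KCNQ1OT1, an antisense transcript of the KCNQ1 locus, had 95.4, 656 and 234 normalised counts in TOV21G controls and 731, 235 and 1511 with ascites, and 614 to 813 in the CAOV3 libraries. Its part in the results was not tested. A run chosen after the data were seen left out TOV21G control replicate 1 and ascites replicate 3, which hold the lowest and highest values of KCNQ1OT1. The TOV21G estimate of MKI67 then was -0.06 (-0.30 to 0.19) in place of 0.25, and that of CENPF was -0.09 in place of 0.16. Those libraries also hold the lowest control and the highest ascites value of MKI67 and of CENPF, so lower estimates follow from leaving them out. The median of the 41 genes in TOV21G then was 0.03 in place of -0.03. A higher median follows from the omission too. Control replicate 1 was the highest TOV21G control for 34 of 41 members, and ascites replicate 3 the lowest ascites library for 31. Removing trends with transcript length and GC content left 0.18 (SE 0.10) for MKI67. The median within-group SD of the 41 genes was 0.04 in CAOV3 and 0.08 in TOV21G, beside 0.09 and 0.11 for all tested genes.

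**Figure D3:**
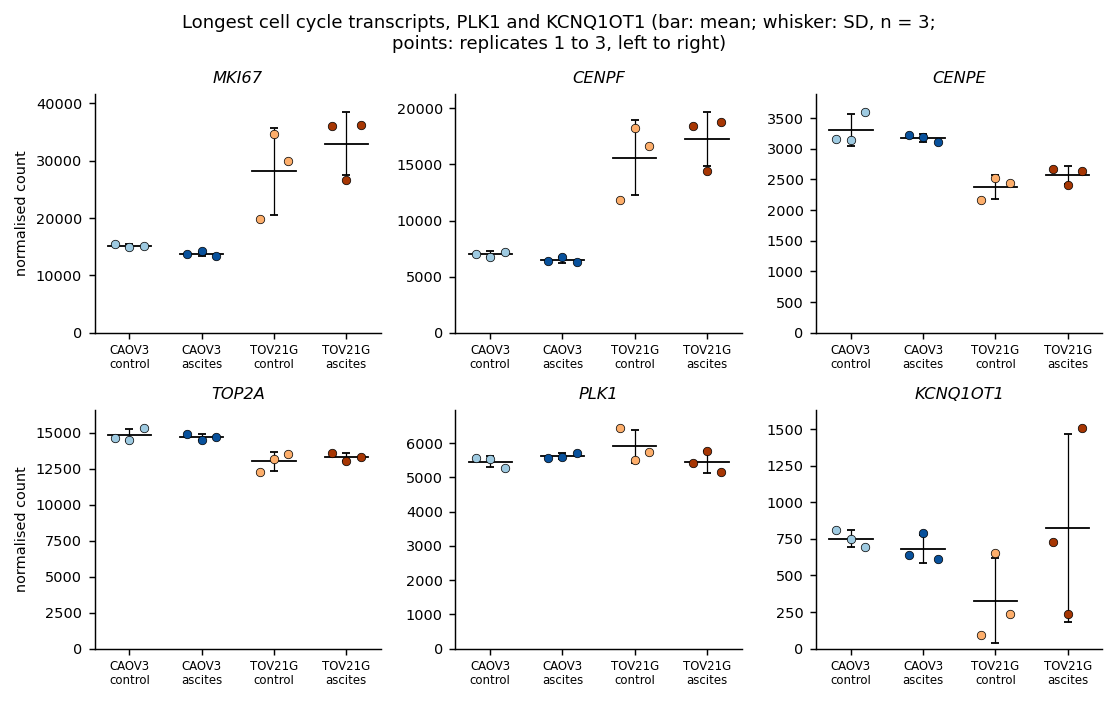
Normalised counts in each library of the 4 members with the longest transcripts (MKI67, CENPF, CENPE, TOP2A), of PLK1 and of KCNQ1OT1, by line and treatment (points, replicates 1 to 3; bar, mean; whisker, SD, n = 3). In TOV21G, control replicate 1 and ascites replicate 2 are the lowest of their groups for the 4 long transcripts and the highest for PLK1.

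The difference between the responses of the lines was also called for 0 of 41 members, where 0.545% of all genes were called. MYBL2 and E2F1 had an unadjusted p under 0.05 in limma, beside 2091 of 17616 tested genes. The edgeR and DESeq2 tests called 0, where they called 0.84% and 1.19% of all genes. They had 2 and 4 members at an unadjusted p under 0.05. The median difference, TOV21G minus CAOV3, was -0.08 over the members and -0.01 over all tested genes. Estimates of the 11 replication genes and 4 deoxynucleotide genes were all below 0, between -0.16 and -0.03. So were those of the 8 genes grouped as mitotic kinases and cyclins, between -0.17 and -0.02. In all, 33 of 41 members were below 0, beside 9296 of 17616 tested genes. Without TOV21G control replicate 1 the median over the members was -0.03. In the run chosen after the data were seen, without that library and ascites replicate 3, it was 0.002.

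The untreated lines were compared next, to give the level from which each line started. The 41 genes were expressed in both, and 34 passed the threshold between them. TOV21G was higher for 9 and lower for 25. The total is near the background, since 82.2% of all tested genes were called between the lines. The split is less even than that of all genes, 40.8% of which were higher and 41.4% lower in TOV21G. Control libraries of the lines did not overlap for 34 members, against 82.6% of all genes. The median log2 difference, TOV21G minus CAOV3, was -0.29 over the members and -0.02 over all tested genes. Differences of at least 1 in size were found for 6 of 41 members and for 42.6% of all genes.

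CCND1 was furthest apart, at 24429 ± 313 (SD, n = 3) normalised counts in CAOV3 and 5397 ± 190 (n = 3) in TOV21G, 4.53-fold lower in TOV21G (limma adjusted p = 4.58e-14). MCM4 had 7661 ± 361 in TOV21G against 19871 ± 265 in CAOV3 (n = 3 each), a log2 difference of -1.38 (SE 0.05). AURKB was lower by the same log2 difference, -1.38 (SE 0.05), with 4575 ± 187 and 1764 ± 142 (n = 3 each). TPX2 was 2.32-fold lower, and GINS2, a subunit of the helicase's GINS partner complex, 2.02-fold lower. The other genes lower in TOV21G included AURKA, a mitotic kinase, and the kinetochore checkpoint genes BUB1 and BUB1B, at -0.97, -0.89 and -0.65. CCNB2 was at -0.85 and CDK1, the kinase that B-type cyclins activate, at -0.62. MCM7 and MYBL2 were both at -0.87, CDC25A at -0.67, CCNE2 at -0.58, KIF20A at -0.52, CENPE at -0.47, CDC45 at -0.46, UHRF1 at -0.44, RRM2 at -0.34 and MCM6 at -0.32. The smallest called differences below 0 were CDC6 at -0.29, E2F1 at -0.25, TOP2A at -0.19, NUSAP1 at -0.15 and MCM3.

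Highest in TOV21G relative to CAOV3 were the genes of widest spread, CENPF at 1.13 (SE 0.13) and MKI67 at 0.85 (SE 0.16). PCNA was 1.44-fold higher (4927 ± 48.7 against 7112 ± 433, n = 3 each), KIF11 and BIRC5 1.34-fold each, and TYMS 1.24-fold. MCM5, CCNB1 and CCNA2 completed the 9, at 0.29, 0.23 and 0.19. CCNE1, FOXM1, MCM2, RRM1, TK1, CDC20 and PLK1 were not called, and their intervals all lay between -0.15 and 0.24. MCM3, at -0.15 (limma adjusted p = 0.0128), was not called without CAOV3 control replicate 3 (adjusted p = 0.0542) or without TOV21G control replicate 2 (0.0619).

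**Figure D4:**
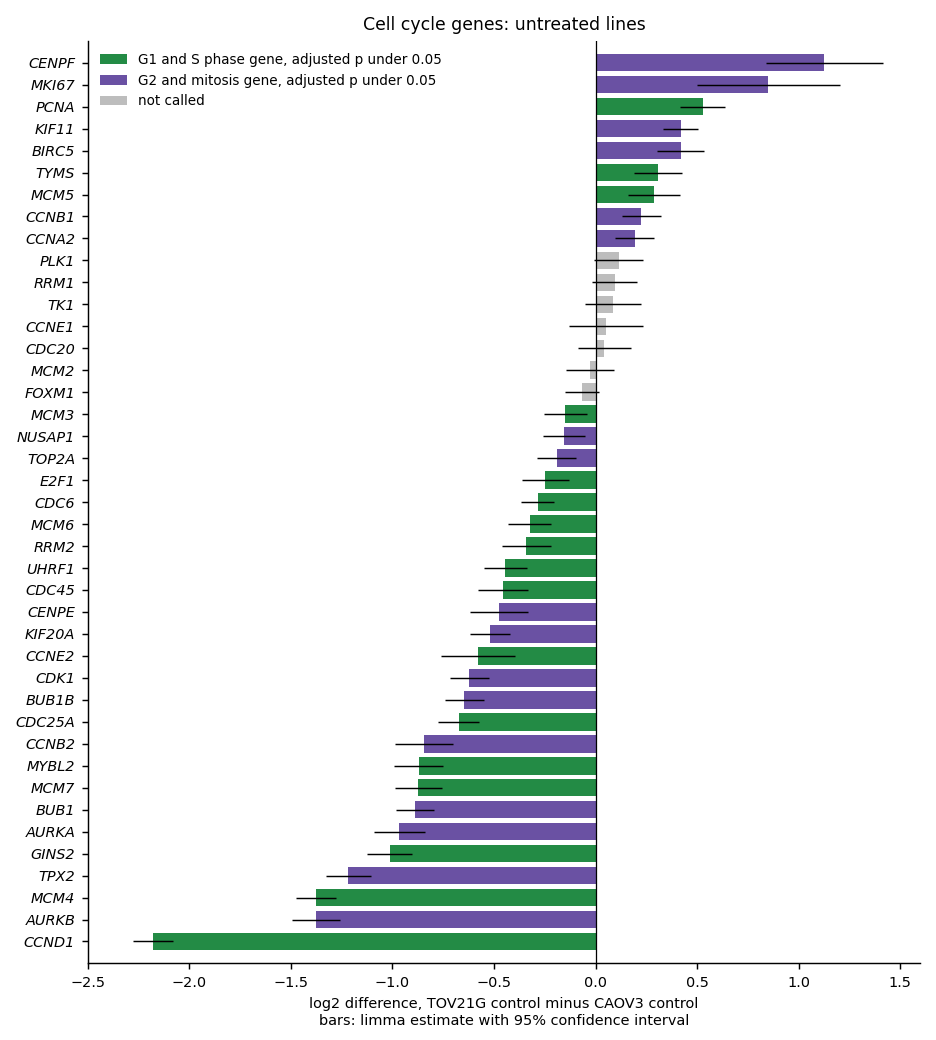
Estimated log2 difference between the untreated lines, TOV21G control minus CAOV3 control, for the 41 genes in order of size. Bars are limma estimates with 95% confidence intervals, coloured by phase where the adjusted p was under 0.05; CCND1 is lowest at -2.18 and CENPF highest at 1.13.

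Unequal levels appeared within single complexes and pathways. Of the MCM ring, MCM4, MCM7, MCM6 and MCM3 were lower in TOV21G, MCM5 was higher and MCM2 was not called. Of the ribonucleotide and thymidylate genes, RRM2 was lower, TYMS higher and RRM1 and TK1 not called. Aurora B and survivin, which share the passenger complex, stood at -1.38 and 0.42. The signs of MCM4, MCM7, RRM2, TYMS, AURKB and BIRC5 were the same in every alternative run.

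Other genes of the cell cycle, 128 tested genes from a list written alongside the members, were read in the same way. With ascites 0 of 128 were called by limma in CAOV3 (19 at an unadjusted p under 0.05) and 0 in TOV21G (6). Of all 17616 tested genes, 2280 and 1615 were at that unadjusted level. The edgeR test called 3 and 0 of them, and DESeq2 4 and 0, beside 2.9% and 2.88% of all genes in CAOV3. Between the untreated lines 53 were higher in TOV21G and 49 lower, near the shares of 40.8% and 41.4% of all tested genes, with a median log2 difference of 0.02.

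The genes that differed most between the lines in this list control entry into the cycle, upstream of most members. CCND2, cyclin D2, had 0 reads in all 3 CAOV3 controls and 1325, 1370 and 1524 normalised counts in the TOV21G controls, at least 1323-fold higher in TOV21G when CAOV3 is set to a floor of 3 reads over the group. CDKN2B, the p15 inhibitor of CDK4 and CDK6, had 3583, 3553 and 3877 in CAOV3 and 58.5, 54.5 and 45.8 in TOV21G (log2 difference -6.10, SE 0.09). CDKN2A, the neighbouring gene for p16 and p14ARF, had 7262, 7512 and 6439 in CAOV3 and 227, 199 and 206 in TOV21G (-5.06, SE 0.10). The libraries of the lines did not overlap for CCND1, CCND2, CDKN2A or CDKN2B, of which CCND2 was higher in TOV21G and the others in CAOV3.

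A further set was chosen after its values were seen. MYC, a growth transcription factor, was at 3.84 (SE 0.08), CDKN1A, the p21 inhibitor, at 3.79 (SE 0.06), and CDKN2C, the p18 inhibitor, at 3.19 (SE 0.07), all higher in TOV21G. MYC had 191, 169 and 200 normalised counts in CAOV3 controls and 2956, 2429 and 2652 in TOV21G controls. CDKN1A had 448, 397 and 378 in CAOV3 and 5888, 5489 and 5555 in TOV21G. RB1, the pocket protein that CDK4 inactivates, was 2.54-fold higher in TOV21G. Others of this set were lower in TOV21G controls, without overlap. CDKN1B had 2347, 2413 and 2424 in CAOV3 and 1730, 1574 and 1704 in TOV21G. CDK4 had 6972, 6985 and 6689 in CAOV3 and 5087, 4746 and 4893 in TOV21G. MYBL1 and UBE2C were lower in TOV21G too. With ascites limma called none of the genes of this set in either line.

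**Figure D5:**
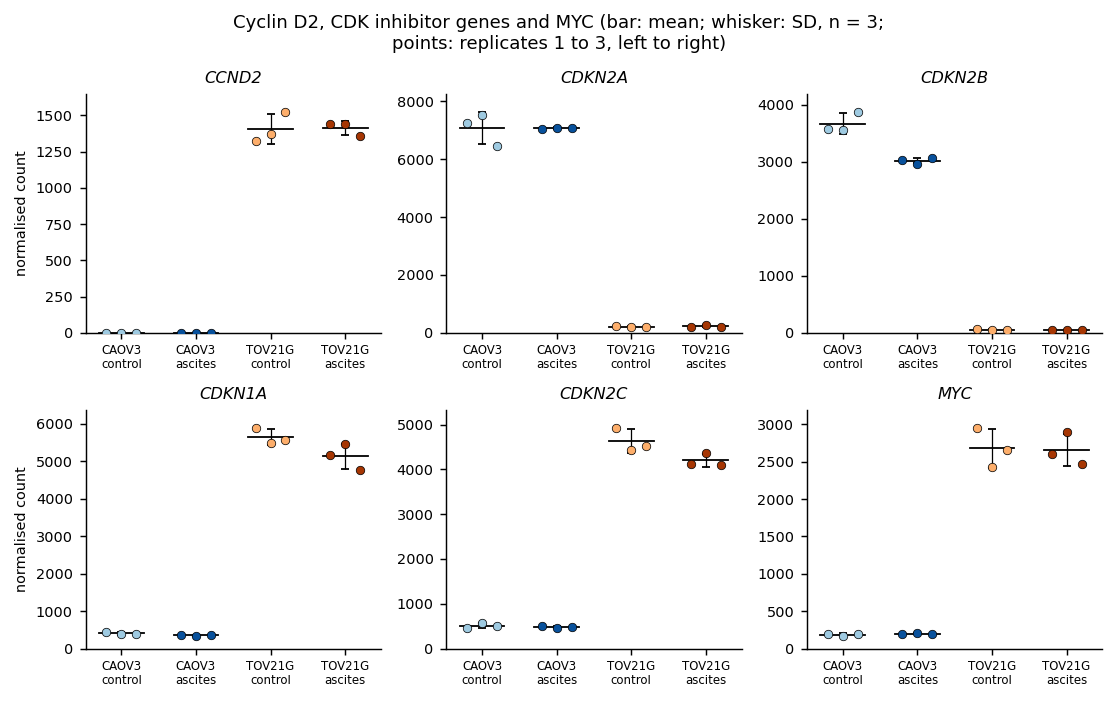
Normalised counts of CCND2, the CDK inhibitor genes CDKN2A, CDKN2B, CDKN1A and CDKN2C, and MYC in each library (points, replicates 1 to 3; bar, mean; whisker, SD, n = 3). CDKN2A and CDKN2B are high in CAOV3, and CCND2, CDKN1A, CDKN2C and MYC are high in TOV21G, with and without ascites.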

How the data were processed

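The deposited files give, for each of 12 libraries, 1 normalised count per gene, a signal that is never negative. Per the submitters' processing notes, Trim Galore, cutadapt, STAR, HTSeq and DESeq were used; versions, genome build, annotation and strandedness are not given in the sources used here. All values of each library were whole multiples of 1 step (within 0.01 reads), and the steps matched median-of-ratios size factors over all 12 libraries, so each deposited signal is reads over a size factor, and whole reads were recovered. Symbols came from a gene name table and GENCODE release 29. By that annotation 21 of the 41 genes overlap another gene (15 on the opposite strand), and such counts may hold reads of both.

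The main test was limma 3.58.1 in R 4.3.3 (lmFit, eBayes with a trend) on log2(value + 1) with a mean per group over all 12 libraries, for genes with a value of at least 10 in at least 3 libraries. It was tested on simulated data, for the CAOV3 contrast only and with the same dispersion in every library. That test did not cover the unequal spread of the lines. P-values are two-sided, adjusted by Benjamini-Hochberg over all tested genes. edgeR 4.0.16 and DESeq2 1.42.0 on recovered reads were alternatives, beside other pseudocounts, filters, scalings, single-line fits, a replicate block and omitted libraries. Replicate pairs differed beyond read sampling (chi-square per degree of freedom 1.81 to 22.6), so all were counted.

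Members and lists were chosen with earlier results of these data known. Values in every library are given for the member with the largest difference in each role group in CAOV3, in TOV21G and between the untreated lines, and for genes said to be chosen after seeing values. Of the other list, the 3 largest between lines are given.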

Additional observations from a re-analysis of the deposited data

How the results depend on the processing

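Over all alternatives run, 0 members were called after ascites in TOV21G and 0 for the difference of responses; in CAOV3 the fit on that line alone called 1 gene higher and 1 lower, and every other alternative 0. With 1 library left out, the members called stayed at 0 and 0 in CAOV3 and TOV21G, and at 0 for the difference. Between the untreated lines 9 to 11 were called higher and 24 to 26 lower. Medians over the members then ran from 0.027 to 0.034 in CAOV3, from -0.069 (without TOV21G ascites replicate 2) to 0.002 (without control replicate 1) in TOV21G, from -0.118 to -0.028 for the difference and from -0.310 to -0.261 between lines. With length and GC trends removed the last was -0.403. Members at an unadjusted p under 0.05 in CAOV3 went from 1 to 8 with TMM scaling, 9 with within-line size factors, 5 with length and GC trends removed, 6 by edgeR and 13 on CAOV3 alone. In TOV21G they went from 2 genes to 15 without control replicate 2 and 12 without ascites replicate 2. In the main test 2280 of 17616 tested genes were at that level in CAOV3 and 1615 in TOV21G. The counts over all genes at that level in the other runs are not given here, so these rises have no background beside them.

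Same-numbered libraries did not deviate together (correlations -0.020, 0.019 and 0.015 in CAOV3, -0.113, -0.332 and 0.019 in TOV21G), so the main test did not pair them. Between TOV21G libraries of unlike number they ran from -0.282 (control replicate 1, ascites replicate 3) to 0.352 (control replicate 1, ascites replicate 2). With 3 libraries per group these correlations cannot exclude paired handling, which no label describes. A fit with the replicate block gave 0 called members for each ascites contrast and 9 higher and 25 lower between lines. In it the calls over all genes were 116, 13 and 9, against 305, 72 and 96 in the main test for CAOV3, TOV21G and their difference. By edgeR they were 511, 114 and 148, by DESeq2 507, 151 and 210, and with each line fitted alone 1295 and 22. With 1 library omitted they ran from 162 to 345 in CAOV3, 24 to 137 in TOV21G and 35 to 147 for the difference. Size factors within each line called 201 higher of 427 in CAOV3, against 112 of 305. Of the 128 other cell cycle genes in CAOV3, limma called 0 in the main test, 2 with TMM or within-line scaling and 10 on CAOV3 alone. Over all 17616 tested genes it called 305 in the main test, 401 with TMM and 427 with within-line scaling. On CAOV3 alone it called 1295 of 15808, or 8.19%. Single-line fits and within-line scaling give no difference of responses, and within-line scaling no comparison of the lines.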

Other observations

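Other cell cycle genes, chosen after their values were seen, differed between tests in CAOV3. UBE2C, the ubiquitin-conjugating enzyme of the anaphase-promoting complex, had 6402, 6345 and 6004 normalised counts in controls and 6997, 7367 and 7539 with ascites, without overlap. Its log2 difference was 0.22, with an adjusted p of 0.105 in limma, 0.0202 in edgeR and 0.00787 in DESeq2. CDKN2B had 3583, 3553 and 3877 in controls and 3040, 2969 and 3063 with ascites, again without overlap. Its log2 difference was -0.28, with an adjusted p of 0.201 in limma, 0.00107 in edgeR and 5.50e-05 in DESeq2. Fitted on the CAOV3 libraries alone, limma gave adjusted p-values of 0.000211 for UBE2C and 3.32e-05 for CDKN2B. In TOV21G their log2 differences were -0.08 and -0.21, with limma adjusted p-values of 0.716 and 0.528.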
